A study of Rattus norvegicus with 6 samples.

Results

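The genes of vitamin D and klotho biology were examined on 1-colour Agilent arrays of rat renal cortex. They are 10 of the 15645 genes with a named probe, chosen by name, Cyp27b1, Cyp24a1, Vdr, Rxra, Kl, Fgfr1, Calb1, S100g, Casr and Pth1r. Probes whose accession belongs to one of these genes in RefSeq numbered 16 among 61537 non-control probes, and all 16 were well above background on all 6 arrays. The first group of rats received monuron, a phenylurea herbicide, at 200 mg/kg/day for 4 weeks, and the others received corn oil, its vehicle, for the same time. The rats were male Sprague-Dawley (Crl:CD(SD)) animals, bought at 5 weeks of age and kept on a basal diet, with 3 animals and 3 arrays in each group.

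Vitamin D becomes a hormone in the kidney. The enzyme encoded by Cyp27b1 makes the active form, calcitriol, in the proximal tubule, and the enzyme encoded by Cyp24a1 breaks it down. Calcitriol acts through the nuclear receptor Vdr paired with a retinoid X receptor, and raises Cyp24a1 and the calcium-binding proteins of the distal nephron. Klotho, the product of Kl, joins an FGF receptor to form the receptor for FGF23, a bone hormone that lowers phosphate reabsorption and calcitriol. Parathyroid hormone acts through Pth1r and raises Cyp27b1, while the calcium-sensing receptor Casr reads blood calcium in the thick ascending limb.

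A probe's signal is given as a multiple of the 75th percentile of its array, which lay between 825 and 922 intensity units, and levels of different probes are not set against each other. The arrays had 60.9% to 70.4% of non-control probes well above background. A single slide carried the monuron arrays and another, scanned separately, the corn oil arrays, so treatment cannot be told apart from slide or scan. Hepatocyte transcripts stood apart on monuron replicate 1 and corn oil replicate 3, where the summed signal of 12 liver genes was 55.8 and 29.9, against 25.9 and 19.1 on the other monuron arrays and 11.6 and 15.7 on the other corn oil arrays. The median log2 fold change of these 12 genes was 1.085, with 11 above 0 and 0 of their 25 probes called. Liver transcripts thus ran partly with treatment. Of 41125 tested probes, limma called 342 higher (0.832%) and 161 lower (0.391%) with monuron at an adjusted p below 0.05, so that 68.0% of calls were higher. That share was 84.8% without scaling and 1.37% with scaling on 7 spike-in control probes, which moved the median log2 fold change of all probes to -0.49, against 0.02 with the 75th percentile. Havcr1, the kidney injury marker, was 13.4-fold higher (adjusted p = 0.00708). The series' design text gives the arrays as biological replicates, so each is taken as a separate rat. The p-values measure the spread between arrays within a group. That spread holds rat and array variation together and no variation between slides.

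The promoter windows shown are those of Cyp27b1 and Pth1r, because among the genes with a promoter sequence at hand these had the largest difference in each direction. Promoters were matched by symbol in RefSeq (GRCr8) for 6 of the 10 genes, namely Cyp27b1, Vdr, Rxra, Kl, Casr and Pth1r. Each window runs from 250 bases before the annotated start site to 50 bases after it, 5′ to 3′ on the gene's strand. Capitals mark matches on either strand to AGGTCA and GGTTCA (forms of the hexamer bound by the vitamin D receptor), to the CCAAT box, to TATAAA (a form of the TATA box), to TGACG (the core of a cyclic AMP response element) and to GGGCGG (the core of a GC box). The Cyp27b1 window is chr7:64756376-64756675 on the plus strand and the Pth1r window chr8:119595522-119595821 on the minus strand.
Cyp27b1: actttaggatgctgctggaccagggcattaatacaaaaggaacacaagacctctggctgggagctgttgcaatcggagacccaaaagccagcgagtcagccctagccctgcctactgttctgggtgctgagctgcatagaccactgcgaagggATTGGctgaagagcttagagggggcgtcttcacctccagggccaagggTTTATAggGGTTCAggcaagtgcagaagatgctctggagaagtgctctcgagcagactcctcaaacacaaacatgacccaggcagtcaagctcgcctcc
Pth1r: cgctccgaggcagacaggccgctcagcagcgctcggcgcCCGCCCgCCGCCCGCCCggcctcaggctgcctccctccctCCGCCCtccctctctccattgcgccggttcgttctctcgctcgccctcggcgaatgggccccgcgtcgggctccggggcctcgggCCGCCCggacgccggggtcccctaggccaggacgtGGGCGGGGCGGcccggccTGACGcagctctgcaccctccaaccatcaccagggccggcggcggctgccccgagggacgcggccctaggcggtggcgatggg

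The Cyp27b1 window held 1 GGTTCA on the gene's strand starting 41 bases before the start site, with CCAAT and TATAAA on the other strand at 97 and 49 bases before it. GGTTCA occurred in 11.7% of the 33469 promoters of the same length, CCAAT in 37.5% and TATAAA in 14.2%. The Pth1r window was rich in G and C (78.7%, against 55.0% for Cyp27b1 and a median of 51.7% over all promoters). It held 7 matches to GGGCGG, some overlapping each other, and 1 TGACG at 33 bases before the start site. GGGCGG was found in 33.1% of all promoters and TGACG in 21.2%. AGGTCA (16.2% of promoters) was seen among the 6 genes in Casr alone. A pair of AGGTCA or GGTTCA hexamers in direct repeat, spaced by NNN, occurred in 16 of the 33469 promoters and in 0 of these 6.

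The intestinal-type calbindin S100g and the vitamin D catabolic enzyme Cyp24a1 had higher signals with monuron, and the parathyroid hormone receptor Pth1r a lower one, each with no overlap between the groups. Klotho, Fgfr1, Vdr and Calb1 averaged close to their corn oil levels. None of these differences passed the test over all probes. At an adjusted p below 0.05 limma called 0 of the 16 probes, beside 0.832% higher and 0.391% lower among all probes. At an unadjusted p below 0.05 there were 4 of the 16, of which 3 higher (2 of Cyp24a1, 1 of S100g) and 1 lower (Pth1r), where 10.4% of all probes were higher and 7.09% lower at that level. Every monuron array lay above every corn oil array for 4 probes (14.9% of all probes) and below for 1 (10.7% of all probes). With limma's trend and robust options, Pth1r alone was called among the 16.

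**Figure D1:**
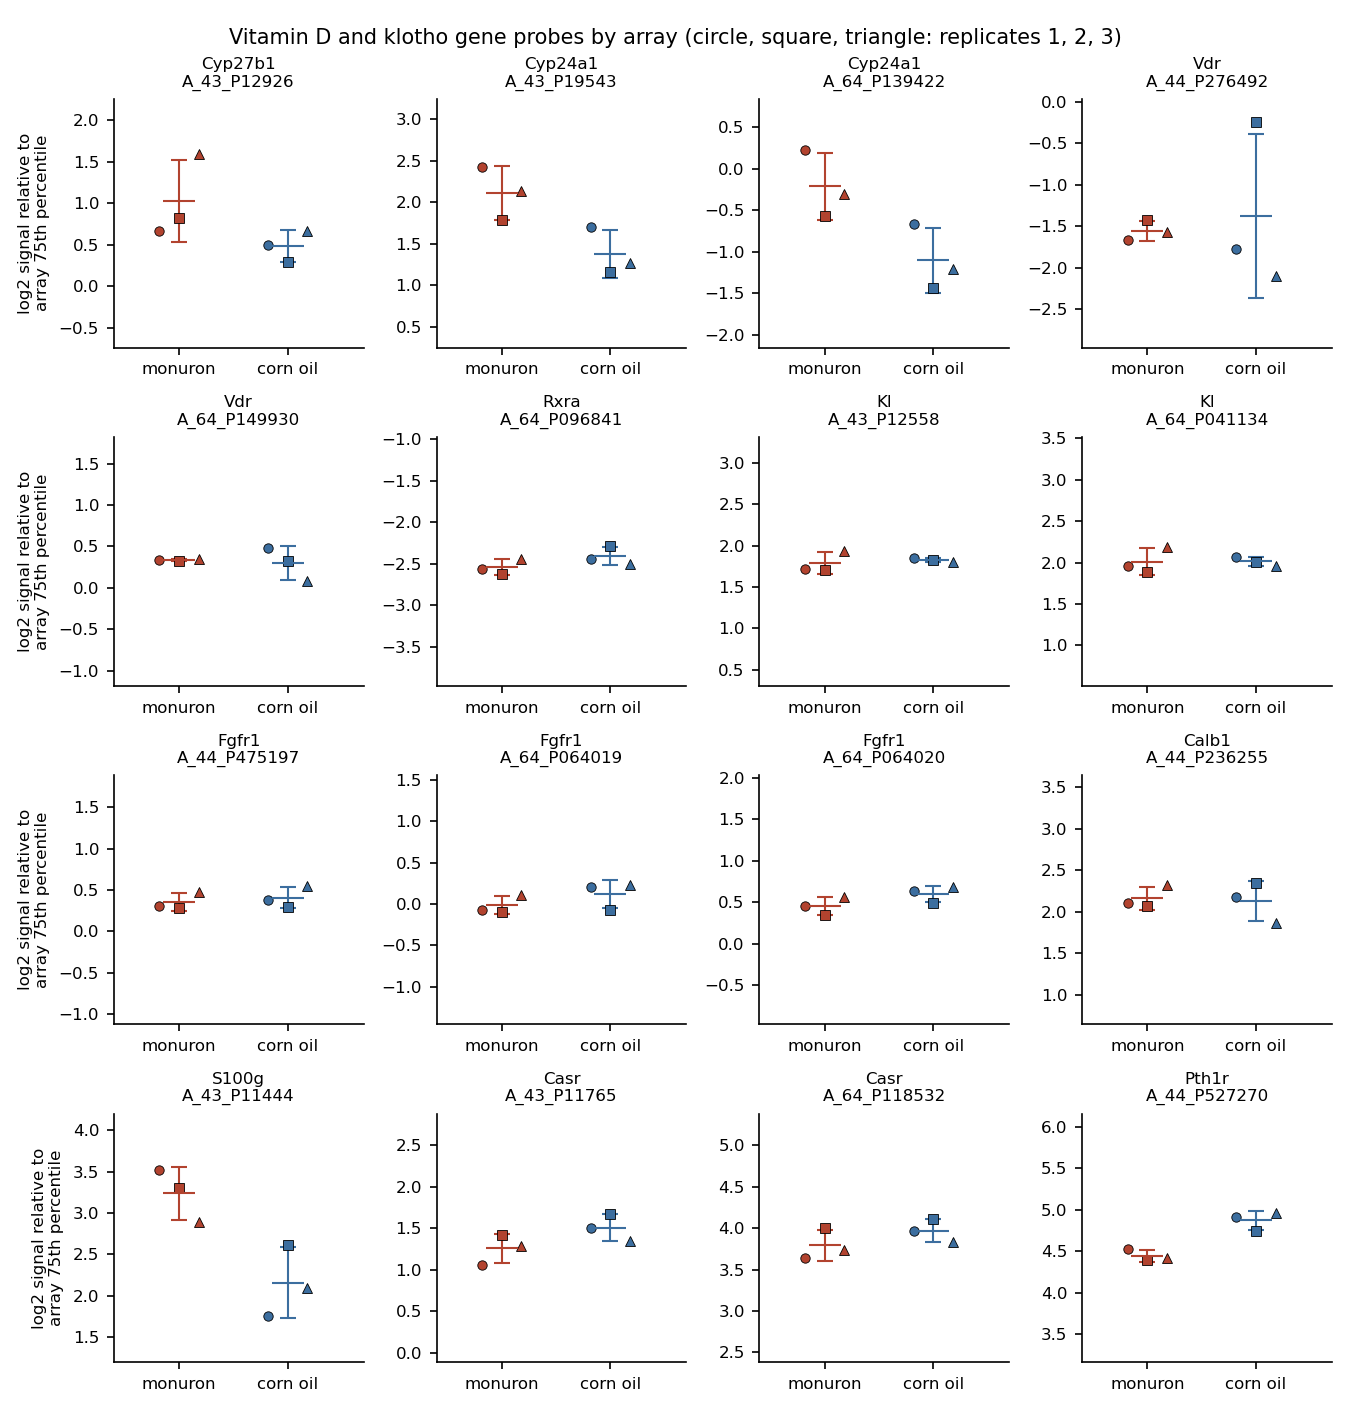
Log2 signal relative to the array's 75th percentile for each of the 16 probes, with monuron (red) left of corn oil (blue). Points are arrays, with replicates 1, 2 and 3 as circle, square and triangle, horizontal bars are means and whiskers SD (n = 3), and each panel spans the same 3 log2 units. The groups do not overlap for S100g, Cyp27b1, Pth1r and both probes of Cyp24a1.

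The enzymes that make and break down calcitriol were both higher on average with monuron. Cyp27b1, the 1-alpha-hydroxylase gene, had relative signals of 1.59, 1.77 and 3.02 in monuron replicates 1 to 3, against 1.42, 1.22 and 1.59 in corn oil replicates 1 to 3. The monuron values lay above the corn oil values only narrowly, apart from monuron replicate 3, which was far above all others. The mean was 2.13 ± 0.78 with monuron and 1.41 ± 0.18 with corn oil (SD, n = 3 each). The log2 fold change was 0.55 ± 0.26 (SE), or 1.46-fold with 95% limits at 0.939 and 2.27. It missed the threshold (adjusted p = 0.344). Without monuron replicate 3 it was 0.26, and without monuron replicate 1 it was 0.73.

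Cyp24a1, the 24-hydroxylase gene and a direct target of the vitamin D receptor, was measured by 2 probes. A_43_P19543 gave 5.39, 3.44 and 4.38 in monuron replicates 1 to 3, against 3.25, 2.24 and 2.41 in corn oil replicates. A_64_P139422 gave 1.18, 0.675 and 0.811 with monuron, against 0.630, 0.371 and 0.435 with corn oil. Both probes put the arrays of each group in the same order, with replicate 1 highest and replicate 2 lowest, and for both the lowest monuron array stood just above the highest corn oil array. The first probe was 1.67-fold higher (95% interval 1.16 to 2.40, log2 fold change 0.74 ± 0.21, adjusted p = 0.173) and the other 1.85-fold (1.16 to 2.96, 0.89 ± 0.28, adjusted p = 0.193). These probes read the same transcript in the same RNA, so they are not independent measurements. With a liver transcript score as covariate the log2 fold changes were 0.66 and 0.75, and without the arrays highest in liver transcripts in each group they were 0.52 and 0.61. The unadjusted limma p with the score was 0.0570 and 0.0752. That score was 1.39, 0.03 and -0.14 in monuron replicates 1 to 3, against -0.93, -0.91 and 0.56 in corn oil replicates. It runs partly with treatment, so such a fit cannot fully separate the 2.

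The array with the most Cyp24a1 (monuron replicate 1) was not the array with the most Cyp27b1 (monuron replicate 3). Taken within each array, which makes the scaling irrelevant, the log2 difference between Cyp24a1 and Cyp27b1 was 0.87, 0.06 and -0.36 in monuron replicates 1 to 3, counted from the corn oil mean, against 0.31, -0.02 and -0.29 in corn oil replicates. The groups overlapped, and the exact two-sided permutation test gave p = 0.7. This was among 3 such pairs chosen after their values were seen, and the smallest p that 3 arrays against 3 allow is 0.1.

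The nuclear receptors overlapped between the groups on every probe, and none was called. For Vdr, the receptor of calcitriol, the brighter probe A_64_P149930 gave 1.27, 1.25 and 1.27 in monuron arrays, against 1.40, 1.25 and 1.06 in corn oil arrays. The monuron arrays sat almost on 1 value, inside the corn oil range. Its fold change was 1.03 with a 95% interval of 0.849 to 1.25 (adjusted p = 0.886). The dimmer Vdr probe A_44_P276492 gave 0.315, 0.371 and 0.337 with monuron, against 0.293, 0.844 and 0.233 with corn oil. Corn oil replicate 2 stood far above the others on this probe but not on the brighter one. The log2 fold change was -0.18 ± 0.48 (adjusted p = 0.875), and without corn oil replicate 2 it was 0.38.

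Rxra, which encodes the retinoid X receptor alpha that pairs with Vdr, was measured by 1 probe. It gave 0.170, 0.162 and 0.185 with monuron, against 0.185, 0.206 and 0.177 with corn oil. The ranges overlapped. The fold change was 0.911 (0.782 to 1.06, adjusted p = 0.490).

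Klotho gave nearly the same mean in both groups on each of its 2 probes. Kl had relative signals of 3.29, 3.25 and 3.83 in monuron arrays, against 3.62, 3.54 and 3.49 in corn oil arrays, on probe A_43_P12558. On probe A_64_P041134 it had 3.88, 3.69 and 4.56 with monuron, against 4.20, 4.03 and 3.88 with corn oil. On both probes monuron replicate 3 was the highest array and monuron replicate 2 the lowest, so the monuron arrays spanned the corn oil ones. The fold changes were 0.972 (95% interval 0.841 to 1.12, adjusted p = 0.839) and 0.998 (0.844 to 1.18, adjusted p = 0.992). With scaling to the 75th percentile these intervals leave out a fall of 1.5-fold or more in klotho mRNA.

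Fgfr1, an FGF receptor that klotho turns into a receptor for FGF23, was measured by 3 probes. A_64_P064020, the brightest, gave 1.38, 1.27 and 1.48 with monuron, against 1.55, 1.41 and 1.6 with corn oil. The groups overlapped on it and on the other probes. Over the 3 probes the log2 fold change was -0.15 ± 0.09, -0.14 ± 0.11 and -0.05 ± 0.10, with adjusted p from 0.442 to 0.820. In bulk tissue, fewer cells of a type and less RNA per cell cannot be told apart. The summed signal of 8 interstitial fibroblast and mural genes, cells that also express Fgfr1, lay between 20.1 and 23.2 with monuron and between 17.2 and 25.9 with corn oil.

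The calcium-binding proteins of the distal nephron gave unlike values. S100g encodes calbindin-D9k, a small EF-hand protein that ferries calcium through the cell. It had relative signals of 11.5, 9.83 and 7.44 in monuron replicates 1 to 3, against 3.38, 6.12 and 4.29 in corn oil replicates. All monuron arrays were above all corn oil arrays, with the narrowest gap between monuron replicate 3 and corn oil replicate 2. The mean was 9.59 ± 2.03 with monuron and 4.6 ± 1.39 with corn oil (SD, n = 3 each). This was the largest difference of the 16 probes, 2.12-fold (95% interval 1.36 to 3.30, log2 fold change 1.08 ± 0.26), and it was not called (unadjusted p = 0.00627, adjusted p = 0.126). Among all tested probes 98.6% had a lower log2 fold change. Leaving out single arrays gave 0.88 to 1.31 on the log2 scale, and the liver transcript score as covariate 0.97.

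Calb1 encodes calbindin-D28k, the larger calcium buffer of the same tubule segments. It had relative signals of 4.29, 4.18 and 4.99 with monuron, against 4.51, 5.08 and 3.64 with corn oil, so the monuron arrays lay inside the corn oil range. Its fold change was 1.02 (95% interval 0.800 to 1.31, adjusted p = 0.927). Within each array the log2 difference of S100g over Calb1, counted from the corn oil mean, was 1.39, 1.20 and 0.55 in monuron replicates 1 to 3, against -0.45, 0.24 and 0.21 in corn oil replicates. The groups did not overlap, and the difference averaged 1.05 with SDs of 0.44 with monuron and 0.39 with corn oil. The exact permutation test gave p = 0.1, the smallest that this design allows, and 0.3 after adjustment over the 3 pairs.

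The summed markers of the distal convoluted and connecting tubule and of the collecting duct overlapped between the groups. The summed signal of the 6 tested distal convoluted and connecting tubule genes was 195 to 247 with monuron and 224 to 287 with corn oil. Their median log2 fold change was -0.17, with 1 of the 6 above 0. Of that list's 7 genes with a named probe, Pvalb, an early distal convoluted tubule marker in mice, did not pass the detection filter. The 10 collecting duct genes summed to between 329.6 and 389 with monuron and between 311 and 391 with corn oil. For them the median was -0.10, with 3 of the 10 above 0. The part of these segments in the S100g difference was not tested.

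The receptors for calcium and parathyroid hormone both averaged lower with monuron. Pth1r encodes the receptor through which parathyroid hormone lowers phosphate reabsorption and raises calcitriol synthesis. It had relative signals of 23.0, 21.0 and 21.3 in monuron replicates 1 to 3, against 30.1, 26.7 and 31.2 in corn oil replicates. The groups did not overlap, and the arrays within each lay close together. The mean was 21.8 ± 1.06 with monuron and 29.4 ± 2.32 with corn oil (SD, n = 3 each), which is 1.35-fold lower, with a log2 fold change of -0.43 ± 0.09 and a 95% interval of -0.64 to -0.22. Pth1r had the smallest p of the 16 probes (unadjusted p = 0.00254) and missed the threshold (adjusted p = 0.0922). With trend and robust fitting its adjusted p was 0.0314, over a range of 0.00283 to 0.286 across the alternatives. Leaving out single arrays gave log2 fold changes from -0.49 to -0.38.

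The summed signal of 12 proximal tubule genes was 2444 to 2710 with monuron and 2855 to 3144 with corn oil, with no overlap. Such a sum weights the brightest genes most, and Miox is among them. Its brightest probe gave 567, 434 and 547 with monuron, against 650, 714 and 745 with corn oil. Of their 22 probes 11 were lower at an unadjusted p below 0.05, beside 7.09% of all probes. Slc5a2, Lrp2 and Miox each gave more than 1 of these 11 probes. The brightest probes of Slc22a6 and Slc22a8 did not reach that level (-0.08 ± 0.08 and -0.14 ± 0.08). Limma called 1 lower (Miox, log2 fold change -0.67 ± 0.08, adjusted p = 0.0325), beside 0.391% of all probes. Another probe of Miox, an inositol oxygenase, gave -0.45 ± 0.12 and was not called. The median of the 12 genes was -0.11, with 3 of the 12 above 0. These were Slc7a13 (1.04 ± 0.51), Slc22a7 (0.51 ± 0.28) and Slc5a12 (0.10 ± 0.17) on their brightest probes. Cubn and Lrp2, also counted among the uptake genes, are on that list. The part of the proximal tubule genes in the Pth1r difference was not tested.

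Casr encodes the calcium-sensing receptor. Its brighter probe A_64_P118532 gave 12.4, 16 and 13.3 with monuron, against 15.6, 17.3 and 14.2 with corn oil. The dimmer A_43_P11765 gave 2.09, 2.67 and 2.44 with monuron, against 2.83, 3.19 and 2.54 with corn oil. In both, monuron replicate 2 overlapped the corn oil arrays and replicate 2 was the highest of each group. The fold changes were 0.883 (0.715 to 1.09, adjusted p = 0.506) and 0.840 (0.674 to 1.05, adjusted p = 0.376). The summed markers of the thick ascending limb, where Casr is abundant, were also highest in replicate 2 of each group. The sums were 260, 405 and 350 in monuron replicates 1 to 3, against 309, 402 and 294 in corn oil replicates. Such a sum weights bright genes most, and the single genes differed. A probe of Umod and the brightest probes of Slc12a1 and Cldn16 were highest in replicate 2 of each group. Cldn10 was lowest in replicate 2 of each group, and Cldn19, Kcnj1 and Ptger3 were not highest there in both groups. The within-array log2 difference of Pth1r over Casr was lower by 0.25 with monuron (exact permutation p = 0.3).

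**Figure D2:**
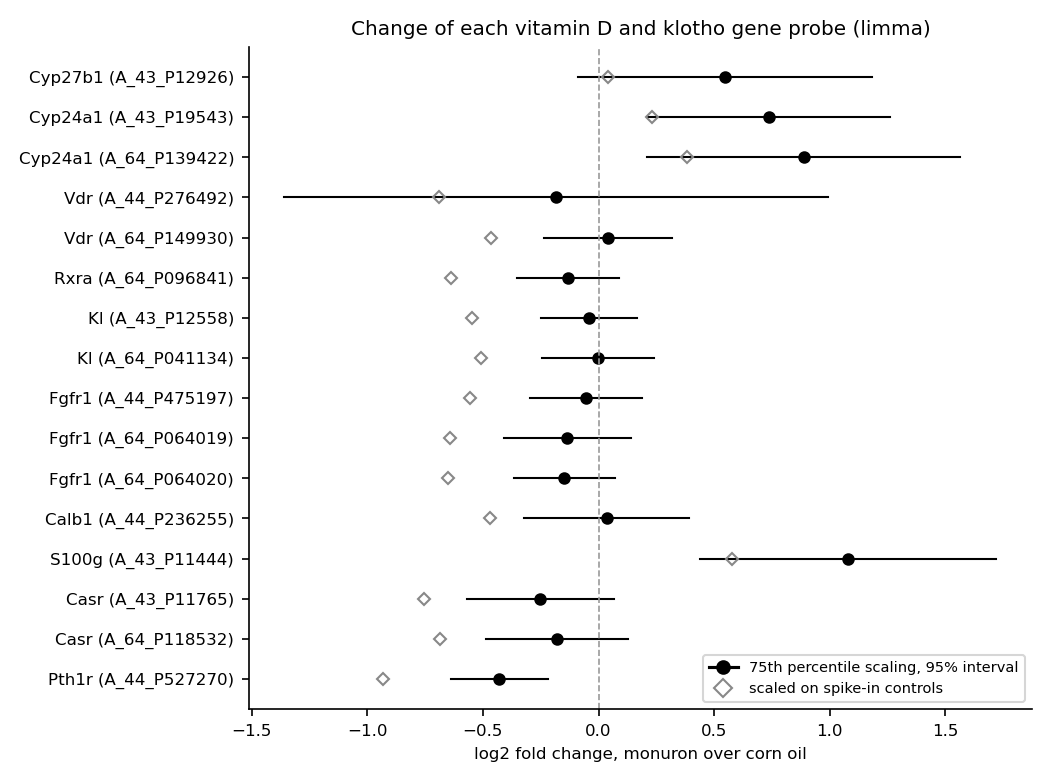
Log2 fold change of monuron over corn oil for each of the 16 probes. Filled circles with lines are limma estimates with 95% intervals after scaling to the 75th percentile, and open diamonds are the estimates after scaling on spike-in controls, which lie about 0.5 lower for every probe. Intervals leave out 0 for S100g, both Cyp24a1 probes and Pth1r, and for no other probe drawn.

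The choice of scaling moved all members together. Scaled on the 7 spike-in probes, the log2 fold change was 0.58 for S100g, 0.23 and 0.38 for Cyp24a1 and 0.04 for Cyp27b1, all above 0 and not called. The other 12 probes were then below 0, and 11 of them were called lower, Pth1r at -0.93 (adjusted p = 0.00283) and the Kl probes at -0.55 and -0.51 among them. With that scaling 28817 of all 41125 probes were called lower. The order of the members is the same under both scalings since every probe moved by the same amount.

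For the members with the smallest p, the genes whose log2 profile over the 6 arrays lay closest were sought among 12071 named genes, by the root mean square distance after centring each gene. Closest to Pth1r were Mad1l1 (0.03), a spindle checkpoint gene, Ociad2 (0.05) and Tysnd1 (0.05), with log2 fold changes of -0.44, -0.39 and -0.36. Closest to S100g were Knl1 (0.11), a kinetochore gene, Rbm20 (0.20) and Ect2 (0.21), a regulator of cytokinesis, with 1.07, 0.91 and 1.21. Of these Ect2 was called (adjusted p = 0.0256). Closest to Cyp24a1 were Spmap2 (0.09), Ptgs2 (0.10), a prostaglandin synthase, and Slc10a1 (0.10), a bile acid transporter of liver, with 0.67, 0.83 and 0.57. The distance describes 6 arrays and nothing more.

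Genes around the members were counted in lists by role. The shares over all tested probes, for comparison with every list, were 0.832% called higher and 0.391% called lower. At an unadjusted p below 0.05 in limma they were 10.4% higher and 7.09% lower. In the supply and uptake of vitamin D, 0 of 15 probes of 12 genes were called, with 1 higher and 4 lower at an unadjusted p below 0.05, and the median log2 fold change was -0.08, beside 0.02 for all probes. The lowest were the endocytic receptors that recover vitamin D bound to its carrier from the filtrate. Cubn had 37.3, 36.6 and 38.9 with monuron, against 68.2, 51.2 and 63.2 with corn oil (log2 fold change -0.69 ± 0.12, adjusted p = 0.0697). Lrp2, megalin, had 72.2, 64.0 and 64.7 with monuron, against 93.7, 88.5 and 106 with corn oil (-0.52 ± 0.10, adjusted p = 0.0788). Both receptor genes were lower on every monuron array than on any corn oil array.

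Among the cofactors of the vitamin D receptor 0 of 20 probes were called and 0 reached an unadjusted p below 0.05 in limma, with a median of -0.06 over 7 genes. The smallest p belonged to Smarca4, a chromatin remodelling ATPase (0.16 ± 0.07), and Snw1, a coactivator (0.22 ± 0.10). In the list of vitamin D receptor targets, which holds S100g, Cyp24a1, Calb1 and Kl themselves, 3 of 20 probes were called higher and 0 lower. They were 1 probe of Spp1, osteopontin (log2 fold change 1.11 ± 0.15, adjusted p = 0.0405), and 2 of the 3 probes of Cdkn1a, the p21 gene (2.04 ± 0.17 and 2.32 ± 0.24, with adjusted p of 0.0118 and 0.0199). The second of these probes was detected on 1 of 3 corn oil arrays, so it passed the filter through the monuron arrays and its log2 fold change rests partly on signals near background. Among the 19 probes of the list detected on all arrays, 2 were called higher. The brightest Cdkn1a probe gave 0.15 ± 0.07 and was not called. Spp1 also marks injured tubule and Cdkn1a is also a target of p53, and the median over the 12 tested genes was 0.09.

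Around klotho, 0 of 24 probes of FGF receptors, FGFs and FGF target genes were called, with 1 higher and 3 lower at an unadjusted p below 0.05, or 1 and 2 among the 22 detected on all arrays. The smallest p belonged to Etv4 (-0.58 ± 0.13, adjusted p = 0.110) and Dusp6 (-0.56 ± 0.18, adjusted p = 0.203), which are induced by FGF and other growth factors through ERK. Dusp6 had 10.9, 16.7 and 12.3 with monuron, against 21.3, 17.0 and 19.8 with corn oil. Monuron replicate 2 nearly reached the lowest corn oil array. Other genes of the list, named after their values were seen, went the other way. The 1 higher probe was that of Spry2 (0.29 ± 0.11, adjusted p = 0.267). The brightest probes of Spry4 and Egr1 gave 0.24 ± 0.14 and 0.54 ± 0.31. Of the 12 tested genes 4 were above 0, and the median was -0.07. The gene of FGF23 itself did not pass the detection filter. For the proteases that shed klotho, 0 of 5 probes were called and 0 reached an unadjusted p below 0.05, with Adam17 at -0.10 ± 0.11 and the brightest Adam10 probe at 0.10 ± 0.20.

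In parathyroid hormone receptor signalling 0 of 32 probes were called, and the median was -0.01. At an unadjusted p below 0.05, 2 were higher and 5 lower, beside 10.4% and 7.09% of all probes. Arrb1, a beta-arrestin that desensitises receptors of this kind, stood at 0.38 ± 0.07 (adjusted p = 0.0748), and Gnaq, a G protein subunit, at -0.40 ± 0.09 (adjusted p = 0.113). In phosphate transport 0 of 15 probes were called and 4 were higher at an unadjusted p below 0.05. Slc34a2, the phosphate cotransporter of gut and lung, had relative signals of 0.0767, 0.0840 and 0.0974 with monuron, against 0.00947, 0.0289 and 0.0223 with corn oil. In corn oil 0 of 3 arrays had it well above background. With the dim arrays set to the lowest signal well above background, it averaged 3.65-fold higher with monuron. That is a lower bound for these arrays only, given without an interval. Its adjusted p of 0.0796 comes from the measured values, and it entered the test through the monuron arrays alone. Among the 14 probes of the list detected on all arrays, 3 were higher at that unadjusted level. Slc20a1, a widely expressed phosphate transporter, gave 0.35 ± 0.07 (adjusted p = 0.0892). The renal phosphate cotransporters, named after their values were seen, stood at -0.09 ± 0.10 (Slc34a1, brightest probe) and -0.10 ± 0.10 (Slc34a3).

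In calcium and magnesium transport 0 of 33 probes were called, and the median over 15 genes was 0.01. At an unadjusted p below 0.05, 2 were higher and 1 lower, beside 10.4% and 7.09% of all probes. A probe of Cldn14, a tight junction gene that restricts calcium reabsorption, gave 1.15 ± 0.38 (adjusted p = 0.216) but was detected on 2 of 3 corn oil arrays, so that this value rests partly on a signal near background. Its brightest probe, detected throughout, gave 0.22 ± 0.17. Among the 31 probes of the list detected on all arrays, 1 was higher and 1 lower at that unadjusted level. A probe of Slc8a1, the sodium-calcium exchanger, gave -0.37 ± 0.13, while its brightest probe gave 0.01 ± 0.09. The apical calcium channel genes, named after their values were seen, did not pass either, with Trpv5 at -0.19 ± 0.12 on its brightest probe and 0.33 ± 0.13 on the other, and Trpv6 at 0.42 ± 0.22. The medians of all 8 lists lay between -0.08 and 0.09. Those of supply, cofactors, klotho and FGF, parathyroid signalling and phosphate transport were above 0 without scaling, and all 8 were below 0 with spike-in scaling.

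**Figure D3:**
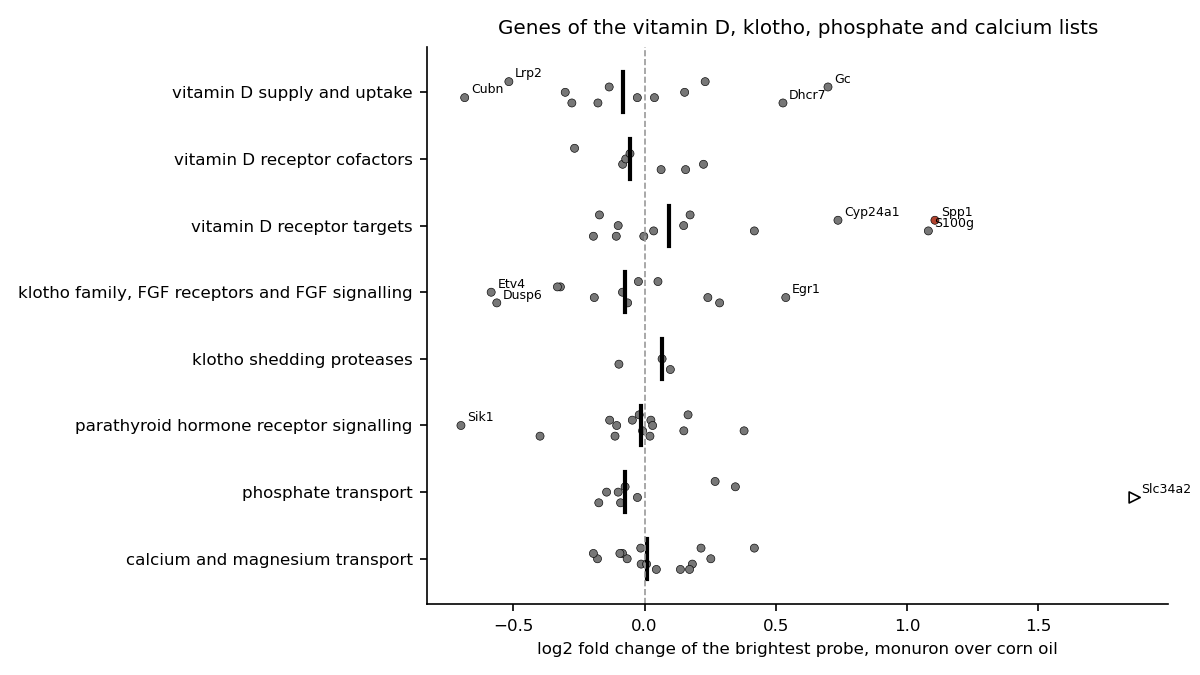
Log2 fold change of monuron over corn oil for the brightest probe of each gene in 8 lists. Each point is a gene, black bars are list medians, red marks a called gene, the open triangle a lower bound, and genes past 0.5 in either direction are named. Spp1 is the only called brightest probe. Slc34a2, well above background on none of the corn oil arrays, is drawn at its bound for these arrays, 3.65-fold.

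Markers of renal cortex were detected. All 12 proximal tubule genes and all 7 podocyte genes on the list were well above background in at least 1 group. All 12 hepatocyte genes and all 10 collecting duct genes also passed, so detection alone does not identify the tissue. Erythroid markers summed to 1094 to 1148 with monuron and 489.5 to 671 with corn oil, and mitosis genes to 10.4 to 12.0 with monuron and 4.21 to 4.74 with corn oil, both with no overlap, as for S100g and Cyp24a1. The tubule injury list summed to 51.6 to 67.0 with monuron and 38.3 to 44.3 with corn oil. The part of these cells or states in the differences of S100g, Cyp24a1 and Pth1r was not tested.

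**Figure D4:**
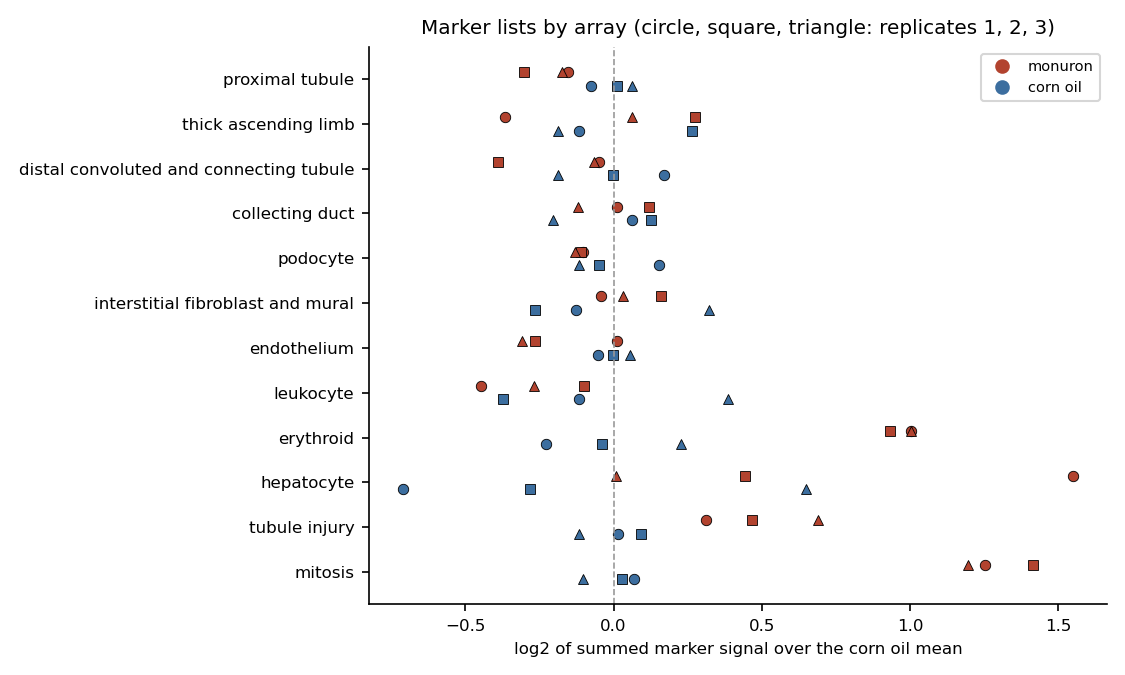
Log2 of the summed relative signal of each marker list over its corn oil mean, by array, with monuron (red) drawn above corn oil (blue) in each row. The erythroid, mitosis, tubule injury and proximal tubule lists separate the groups, and the hepatocyte list is highest on monuron replicate 1 and corn oil replicate 3.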

How the data were processed

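The deposited scanner files give linear spot intensity. Per the submitters' processing notes the authors used Agilent Feature Extraction 10.7. Per the file headers the software wrote a processed signal for each spot; the correction behind it is not given in the sources used here. The values in the authors' deposited table are a ratio, equal within 0.0497% (values of at least 0.1) to the processed signal over 1 constant per array, which settles its scale. The medians by array were 0.111, 0.111 and 0.110 for monuron replicates 1 to 3 and 0.108, 0.111 and 0.112 for corn oil replicates 1 to 3.

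Here, each processed signal was divided by its array's 75th percentile over non-control probes and put on the log2 scale. Control spots and feature outliers were left out, and 0 spots were saturated. Probes well above background on all 3 arrays of a group entered a two-sided test in limma 3.58.1 (R 4.3.3, functions lmFit and eBayes). The p-values were adjusted by Benjamini-Hochberg across 41125 probes, with a threshold of 0.05. All p-values are from this test unless named as exact, and errors of log2 fold changes are SE. Accessions matched to RefSeq (GRCr8) named 45.8% of probes. The array design cites an older build than GRCr8, so the only coordinates given are those of the RefSeq promoter windows, on GRCr8. Tested on simulated arrays of 41125 probes for this comparison, the fit called 23.3% at a 1.5-fold change, 54.3% at 2-fold and 79.7% at 4-fold. The members, the gene lists and the alternatives were chosen with earlier results of these data known. Named were all member probes and, from each pathway list, the called genes or otherwise up to 2 with the smallest p. Spot signals for normexp were medians, since the mean is not in the columns used. The number of arrays limits the precision.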

Additional observations from a re-analysis of the deposited data

How the results depend on the processing

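Of 340 refits of the 16 probes under 22 alternatives, 307 kept direction and side of the threshold, 23 changed sign and 12 were called lower, 11 of them with spike-in scaling (2 of which had also changed sign) and Pth1r with trend and robust. The causes were not tested. S100g, Cyp24a1, Cyp27b1, Pth1r, Casr and Rxra changed sign in none. Leaving out single arrays gave log2 fold changes of -0.116 to 0.00101 for Kl (A_43_P12558), -0.0923 to 0.0597 for Kl (A_64_P041134), -0.115 to 0.0182 for Fgfr1 (A_44_P475197), -0.548 to 0.379 for Vdr (A_44_P276492), -0.0681 to 0.134 for Vdr (A_64_P149930) and -0.0975 to 0.144 for Calb1. Kl (A_43_P12558) reached 0.045 without scaling and 0.0049 with the liver score. Kl (A_64_P041134) reached 0.0833 without scaling and 0.0532 with the liver score. Fgfr1 (A_44_P475197) reached 0.0333 without scaling and 0.0431 without corn oil replicate 3 and monuron replicate 1 together. Vdr (A_64_P149930) reached -0.46 with spike-in scaling, -0.0696 with normexp and quantile normalization, -0.0722 as the mean of the gene's probes and -0.0692 without both liver-rich arrays. Vdr (A_44_P276492) reached 0.18 with the liver score and 0.38 without corn oil replicate 2. Calb1 reached -0.47 with spike-in scaling, -0.0319 with normexp and -0.0678 without both liver-rich arrays.

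Over all probes, 342 were called higher and 161 lower. The counts were 542 and 390 with normexp and quantile normalization, 587 and 371 with trend and robust, 86 and 30 without a detection filter, 117 and 19 with the liver transcript score as covariate, 435 and 78 without scaling, and 401 and 28817 with spike-in scaling. Without corn oil replicate 3 and monuron replicate 1 together they were 0 and 0 in limma, with 5564 at an unadjusted p below 0.05. Without corn oil replicates 1, 2 and 3 in turn they were 149 and 24, 96 and 26, and 153 and 37, and without monuron replicates 1, 2 and 3 they were 43 and 11, 61 and 12, and 19 and 2. With the replicate number as a replicate block limma called 0 and 0, with 6179 at an unadjusted p below 0.05. Same-numbered arrays deviated from their group means with correlations of -0.08, 0.10 and -0.16. Of 3 monuron arrays 1 correlated best with its own number. So few arrays cannot show whether the numbers pair them. Quantile normalization, median centring, array weights, the authors' table, a floor, detection on all arrays and 1 probe per gene kept both counts within 1.5 times.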
